A study of Mus musculus with 8 samples.

Results

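The 44 genes described here encode proteins that build or process the extracellular matrix without being collagen chains: lysyl oxidases, collagen hydroxylases, the procollagen chaperone and propeptide-processing proteins, elastic fibre components, proteoglycans, nidogens, matrix glycoproteins and the tissue inhibitors of metalloproteinases (TIMPs). They were taken by symbol from a list made with earlier results of these data known. All 44 were found among the 17823 genes of the deposited count table. Of the 44, 40 passed the filter on low counts and were tested, out of 12610 genes tested in all. The 4 that did not pass were the elastic fibre genes Eln, Fbn2, Mfap2 and Mfap5.

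The counts come from bone-marrow-derived macrophages of C57BL/6 mice, grown with 20 ng of recombinant M-CSF, the growth factor that drives macrophage development, for 7 days and treated with LPS at 1 µg/ml, a bacterial membrane component that activates macrophages. All 8 libraries share this background, growth and LPS treatment. Cells carrying signal from an Il19-tdT reporter (tdT positive, n = 4) were compared with cells without it (tdT negative, n = 4), which asks how the matrix genes differ between cells with and without activity of the cytokine gene Il19. The sources used here do not give the construction of the reporter allele, the way in which the cells were separated, or the age and sex of the mice.

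Fibrillar collagens are made as procollagen chains that are hydroxylated in the endoplasmic reticulum, folded with the help of the chaperone Serpinh1 (Hsp47), trimmed of their propeptides by Bmp1 with its enhancer Pcolce, and cross-linked outside the cell by lysyl oxidases. Elastic fibres form when elastin is laid on microfibrils of fibrillin with the help of fibulins, and small leucine-rich proteoglycans such as biglycan and decorin coat collagen fibrils. Fibroblast-like stromal cells are the classical source of most of these proteins, whereas macrophages are known to make a smaller set, among them osteopontin (Spp1), the TGF-beta-induced protein (Tgfbi) and Timp1.

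The libraries held 49850537 to 58516454 counts, so that 3 counts correspond to 0.0490 to 0.0696 CPM (counts scaled to a common library size) in a single library. Il19 itself averaged 185 CPM in tdT-positive libraries against 11.98 CPM in tdT-negative ones, a log2 fold change of 3.96 (SE 0.16, edgeR adjusted p = 0.00039). Macrophage markers were high in every library. Their summed level was 15222 to 19684 CPM in tdT-positive libraries against 12835 to 22678 CPM in tdT-negative ones. Of 11 tested macrophage markers 2 were higher in tdT-positive libraries and none was lower. The higher ones were Mrc1 and Mertk, with log2 fold changes of 0.89 and 0.73 (edgeR adjusted p = 0.0030 and 0.0109). A reference list of 16 stromal genes, among them Col1a1, Col3a1 and Pdgfra, summed to 49.2 to 129 CPM in tdT-positive libraries against 219 to 1947 CPM in tdT-negative ones. Tested on 12 of its genes, this list had 11 lower in tdT-positive libraries and 1, Fap, that did not pass. Over all genes tested, 7.81% were lower. Of the 12 stromal genes, 10 were above the filter on low counts in all 4 tdT-positive libraries. None of the 16 was at 0 in either group as a whole. The tdT-negative library 4 stood apart from the other tdT-negative libraries, which had stromal sums of 219 to 479 CPM, and it also held 2987 CPM of osteoclast markers against 140 to 285 CPM in those libraries. Markers of smooth muscle cells and pericytes summed to 2.11 to 6.11 CPM in tdT-positive libraries against 10.6 to 63.3 CPM in tdT-negative ones. Of their 5 tested genes 4 were lower, and 3 of the 5 were above the filter on low counts in all 4 tdT-positive libraries. None of the 5 tested endothelial markers passed in either direction. Of 8 tested neutrophil markers 4 were lower, S100a9, Ngp, Ltf and Prtn3, all without overlap. These were above the filter on low counts in 3, 3, 2 and 0 tdT-positive libraries, and passed it through the tdT-negative libraries. S100a9, Ngp and Ltf had log2 fold changes of -6.57, -5.82 and -5.54. Between the libraries of replicate number 4 their log2 CPM differed by -2.23, -1.17 and -0.87, against -6.14 to -9.51 at numbers 1 to 3. In tdT-negative library 4 they were at 7.55, 2.33 and 0.895 CPM, below the other tdT-negative libraries. Prtn3 had 0 counts in all 4 tdT-positive libraries, as did Elane, which was not tested. The 3 neutrophil markers Mmp8, Csf3r and S100a8 were higher. The list summed to 522 to 789 CPM in tdT-positive libraries against 176 to 864 CPM in tdT-negative ones. Of 9 tested osteoclast markers 4 were lower, among them Dcstamp and Itgb3, and 1 of the 4 without overlap. Of 5 tested megakaryocyte markers 1 was lower and 1 higher, and neither of the 2 tested adipocyte and osteoblast markers passed. The part of these other cell types in the results below was not tested.

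Differences are given as log2 fold changes of tdT-positive over tdT-negative libraries from an edgeR quasi-likelihood fit in which the replicate number is a block, so that libraries sharing a number are compared. Its p-values carry a Benjamini-Hochberg adjustment across the 12610 genes, and the threshold was 0.05. In this fit 27 of the 40 tested genes were lower in tdT-positive libraries, 1 (Spp1) was higher and 12 did not pass. Over all genes tested, 7.81% were lower and 8.03% were higher. The median log2 fold change of the 40 genes was -2.32, beside 0.0051 over all genes. Without the block no matrix gene passed. The smallest edgeR adjusted p of a member was 0.0562, and 0.0238% of all genes were called in either direction. At an unadjusted edgeR p under 0.05 in that fit, 27 members were lower, beside 2058 of all 12610 genes in either direction. The DESeq2 Wald test called 23 members lower without the block, beside 594 lower and 327 higher among all genes.

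Counting libraries without a model, 24 of the 40 genes had every tdT-positive library below every tdT-negative library, against 5.92% of all genes tested. None had every tdT-positive library above every tdT-negative library, against 5.46% of all genes. Of the tested genes, 6, namely P4ha3, Fbln1, Fbln5, Lum, Fmod and Matn2, passed the low-count filter through the tdT-negative libraries and not in all 4 tdT-positive libraries. Among the 34 genes that were above the filter in all 4 tdT-positive libraries, 22 were lower and 1 was higher, with a median of -2.23, while 6.03% of all genes so chosen were lower. In these bulk samples, fewer cells of a type and less RNA per cell cannot be told apart.

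**Figure D1:**
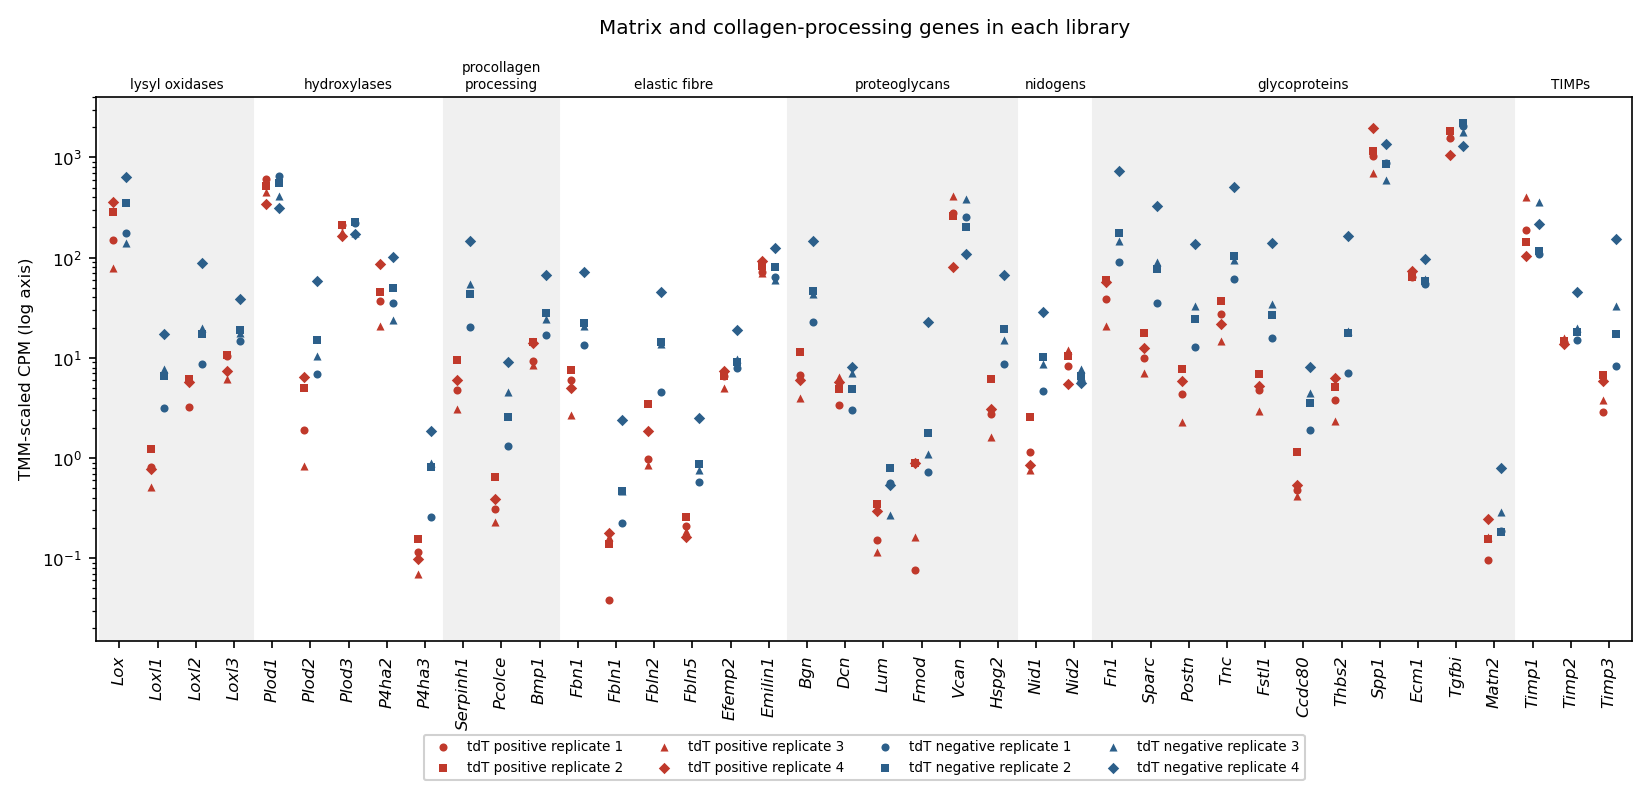
Level of each of the 40 tested genes in each library, in TMM-scaled CPM on a log axis, grouped by role; each symbol is 1 library, red for tdT positive and blue for tdT negative, and its shape gives the replicate number. Genes of the lower set such as Serpinh1, Bgn and Sparc have all 4 red points below all 4 blue points, whereas Plod1, Vcan, Ecm1 and Timp1 have overlapping groups. The blue diamond, tdT-negative library 4, is the highest tdT-negative point in 26 of the 27 lower genes. No such share was computed over all genes.

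The genes at the ends of the range are shown with their promoter windows, since they mark the contrast within the set: Serpinh1 and Fbln2 had the largest falls that passed in the blocked fit, by a margin under their SE, and Spp1 and Tgfbi were the most abundant per length among those not lower. RefSeq windows of the GRCm38.p6 build, from 250 bases before to 50 bases after the annotated start, matched 29 of the 44 genes by symbol or identifier. The windows are chr7:99353190-99353489 on the minus strand for Serpinh1, chr6:91212514-91212813 on the plus strand for Fbln2, chr5:104434861-104435160 on the plus strand for Spp1 and chr13:56609336-56609635 on the plus strand for Tgfbi. Capitals mark a match to one of 5 searched motifs, read 5′ to 3′ along the gene's strand:
Serpinh1: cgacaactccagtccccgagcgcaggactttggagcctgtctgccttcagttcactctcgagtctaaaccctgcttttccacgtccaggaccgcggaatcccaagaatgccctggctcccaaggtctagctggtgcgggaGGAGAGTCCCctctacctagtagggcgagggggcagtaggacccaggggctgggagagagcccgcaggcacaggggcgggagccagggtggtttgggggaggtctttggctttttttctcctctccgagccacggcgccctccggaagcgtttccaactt
Fbln2: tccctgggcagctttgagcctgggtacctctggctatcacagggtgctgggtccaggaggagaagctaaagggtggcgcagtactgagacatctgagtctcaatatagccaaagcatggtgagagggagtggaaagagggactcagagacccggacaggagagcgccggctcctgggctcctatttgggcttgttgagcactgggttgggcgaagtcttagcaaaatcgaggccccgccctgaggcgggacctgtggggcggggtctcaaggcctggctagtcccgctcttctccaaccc
Spp1: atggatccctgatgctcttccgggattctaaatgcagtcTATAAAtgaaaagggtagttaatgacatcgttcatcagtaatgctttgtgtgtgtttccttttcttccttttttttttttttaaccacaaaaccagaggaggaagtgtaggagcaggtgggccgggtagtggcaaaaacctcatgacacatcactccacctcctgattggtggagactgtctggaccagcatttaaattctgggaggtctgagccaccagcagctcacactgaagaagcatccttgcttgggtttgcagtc
Tgfbi: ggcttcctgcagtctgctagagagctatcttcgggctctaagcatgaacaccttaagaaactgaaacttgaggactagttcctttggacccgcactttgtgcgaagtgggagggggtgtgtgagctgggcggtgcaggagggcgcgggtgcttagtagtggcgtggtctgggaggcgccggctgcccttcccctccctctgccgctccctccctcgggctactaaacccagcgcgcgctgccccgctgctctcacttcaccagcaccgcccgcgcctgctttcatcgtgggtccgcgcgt
The capitals in the Serpinh1 window are a match to the NF-kB consensus on the opposite strand at positions 141 to 150, and those in the Spp1 window are a TATAAA match at positions 40 to 45, counted from the first base of each window. Fbln2 and Tgfbi had no match to any of the 5. The table holds a second Spp1 window, chr5:104435942-104436241, without a match, and a gene with several windows was counted as holding a motif if any of them did.

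Among the windows of 18 lower and 10 other tested members, the NF-kB consensus was found in Serpinh1, Fbln1 and Thbs2 and in none of the others, beside 12.4% of the windows of all 9923 tested genes with one. The AP-1 motif TGANTCA was found in no lower gene and in Ecm1, beside 6.55% of all. TATAAA occurred in Postn, Tnc and Thbs2 of the lower genes and in Plod1, Spp1 and Ecm1 of the others, beside 8.63%. The TEAD motif GGAATG was found in Nid1 and Timp1, beside 14% of all, and the CArG box in no member, beside 1.53%. Both strands were searched, overlapping matches of different motifs were counted for each motif, and these matches describe letters in a window only.

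All 4 lysyl oxidases, the enzymes that cross-link collagen and elastin, were lower in tdT-positive libraries, with a median log2 fold change of -1.72, but they differed widely in size. Lox, the most abundant of them, was at 151, 283, 77.9 and 358 CPM in tdT-positive libraries 1 to 4 and at 177, 346, 140 and 633 CPM in tdT-negative libraries 1 to 4. The 2 groups overlapped, yet each tdT-positive library lay below the tdT-negative library of its number, and Lox fell by 0.55 (SE 0.12, edgeR adjusted p = 0.0278). Per length, Lox was at 44.1 RPKM (reads scaled to gene length and library size) in tdT-positive and 65.7 RPKM in tdT-negative libraries.

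Loxl3 was at 10.4, 10.7, 6.17 and 7.39 CPM in tdT-positive libraries against 14.7, 18.8, 17.9 and 38.3 CPM in tdT-negative ones, with no overlap and a fall of 1.30 (SE 0.28, edgeR adjusted p = 0.0259). Loxl1, which acts mainly in elastic fibre assembly, had the largest fall of the class: it was at 0.806, 1.22, 0.510 and 0.784 CPM in tdT-positive libraries against 3.13, 6.53, 7.69 and 17.3 CPM in tdT-negative ones. Every tdT-positive library was below every tdT-negative library, and Loxl1 fell by 3.18 (SE 0.41, edgeR adjusted p = 0.00921). Loxl2 fell by 2.14 (SE 0.42), also without overlap. Exons of Loxl3 overlap those of Htra2 on the other strand by 535 bases, and Htra2 had a log2 fold change of 0.02. Htra2 had 20738 counts against 7043 for Loxl3, and whether its reads entered the Loxl3 counts was not tested.

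Collagen hydroxylases divided into 2 that were lower and 3 that did not pass. Of the lower ones, P4ha3 was above the low-count filter in no tdT-positive library. Plod1, the lysyl hydroxylase that acts on the helical part of collagen, was at 602, 517, 447 and 345 CPM in tdT-positive libraries against 655, 549, 407 and 311 CPM in tdT-negative ones. The groups overlapped fully, with a log2 fold change of 0.02 (SE 0.08, edgeR adjusted p = 0.888). Plod3, which adds glucose and galactose to hydroxylysine as well as hydroxylating lysine, was at 213, 209, 178 and 163 CPM in tdT-positive libraries against 222, 224, 177 and 171 CPM in tdT-negative ones, a log2 fold change of -0.05 (SE 0.06, edgeR adjusted p = 0.553). Both were abundant per length, at 147 and 148 RPKM for Plod1 and 58.2 and 60.5 RPKM for Plod3 in tdT-positive and tdT-negative libraries. Exons of Plod3 overlap those of Znhit1 on the other strand by 529 bases, and Znhit1 had 20732 counts against 86124 for Plod3.

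P4ha2, a catalytic subunit of prolyl 4-hydroxylase, was at 36.5, 45.3, 20.9 and 85.3 CPM in tdT-positive libraries against 35.5, 49.9, 24.1 and 101 CPM in tdT-negative ones, with overlapping groups and a log2 fold change of -0.14 (SE 0.07, edgeR adjusted p = 0.206). Its paralogue P4ha3 was rare, at 0.115, 0.155, 0.0696 and 0.0980 CPM in tdT-positive libraries against 0.261, 0.823, 0.882 and 1.84 CPM in tdT-negative ones. The groups did not overlap, and P4ha3 fell by 2.93 (SE 0.48, edgeR adjusted p = 0.0123), on 245 counts in all 8 libraries. Plod2, the lysyl hydroxylase of collagen telopeptides, averaged 3.56 ± 2.63 CPM in tdT-positive libraries against 22.8 ± 24.3 CPM in tdT-negative ones (SD, n = 4 each) and fell by 2.50 (SE 0.34, edgeR adjusted p = 0.00941).

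The 3 genes of procollagen folding and propeptide removal were all lower, with a median of -3.22, the lowest of the 8 role classes. Serpinh1, the collagen-specific chaperone, was at 4.79, 9.55, 3.11 and 5.95 CPM in tdT-positive libraries against 20.1, 43.8, 54.3 and 148 CPM in tdT-negative ones. Its highest tdT-positive library lay under its lowest tdT-negative one, and it fell by 3.24 (SE 0.46, edgeR adjusted p = 0.00998), close to Fbln2 at -3.22 and Pcolce at -3.22. The order of these genes differed between fits: without the block Fmod was at -3.66, Thbs2 at -3.54 and Serpinh1 at -3.50. Its mean CPM was 11.4-fold higher in tdT-negative libraries.

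Bmp1, the protease that removes the procollagen C-propeptide, was at 9.19, 14.5, 8.49 and 14.2 CPM in tdT-positive libraries against 17.1, 28.3, 24.2 and 67.8 CPM in tdT-negative ones. The groups did not overlap, and the fall of 1.41 (SE 0.22, edgeR adjusted p = 0.0114) was the smallest of the 3. Pcolce, which enhances that cleavage, averaged 0.396 ± 0.184 CPM and 4.40 ± 3.44 CPM in the 2 groups (SD, n = 4 each) and fell by 3.22 (SE 0.48).

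Of the 10 elastic fibre genes, 6 could be tested. Fbln1 and Fbln5 were above the low-count filter in only 1 and 2 tdT-positive libraries. Of the 6 tested genes, 5 were lower without overlap, Fbln1 and Fbln5 included, and Emilin1 did not pass. Emilin1, an elastin-microfibril interface protein, was the most abundant of them per length, at 71.7, 82.0, 70.6 and 93.4 CPM in tdT-positive libraries against 64.2, 80.0, 60.4 and 125 CPM in tdT-negative ones. Its groups overlapped, and its log2 fold change was -0.00011 (SE 0.11, edgeR adjusted p = 1.00). Efemp2 (fibulin-4), which brings lysyl oxidase to elastin, was at 6.62, 6.61, 4.99 and 7.34 CPM in tdT-positive libraries against 7.84, 9.19, 9.72 and 18.8 CPM in tdT-negative ones. It fell by 0.76 (SE 0.18, edgeR adjusted p = 0.0324), the smallest fall among the 5. Exons of Efemp2 overlap those of Mus81 on the other strand by 173 bases, and Mus81 had a log2 fold change of 0.10. Mus81 had 6260 counts against 4013 for Efemp2, and whether its reads entered the Efemp2 counts was not tested.

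Fbln2, a fibulin of basement membranes and elastic fibres, was at 0.978, 3.48, 0.858 and 1.85 CPM in tdT-positive libraries against 4.54, 14.5, 13.8 and 44.9 CPM in tdT-negative ones. The groups did not overlap, and Fbln2 fell by 3.22 (SE 0.45, edgeR adjusted p = 0.00963). The log2 fold change was -2.35 for Fbn1, the main microfibril protein, -2.51 for Fbln1 and -2.33 for Fbln5, the latter pair on 235 and 316 counts over all libraries. Elastin itself was near absent from the libraries: Eln had 2 counts in all 8, Fbn2 7, Mfap5 22 and Mfap2 34. Fitted without the filter on low counts, none of these 4 passed, with adjusted p between 0.0640 (Mfap5) and 0.937 (Fbn2).

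Of the 6 proteoglycans, 4 were lower, and Vcan and Dcn did not pass. Among the lower ones, Lum and Fmod were above the low-count filter in only 2 tdT-positive libraries each. Vcan, the large hyaluronan-binding proteoglycan versican, was at 279, 260, 408 and 80.7 CPM in tdT-positive libraries against 254, 200, 388 and 108 CPM in tdT-negative ones. Number 4 was the lowest and number 3 the highest in both groups, which overlapped, and its log2 fold change was 0.04 (SE 0.12, edgeR adjusted p = 0.838). Bgn, a small leucine-rich proteoglycan, was at 6.81, 11.4, 3.94 and 5.96 CPM in tdT-positive libraries against 23.0, 46.5, 43.6 and 147 CPM in tdT-negative ones. No libraries overlapped, and Bgn fell by 2.94 (SE 0.47, edgeR adjusted p = 0.0119).

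Dcn, the small leucine-rich proteoglycan closest to Bgn in structure, was at 3.36, 4.94, 6.40 and 5.77 CPM in tdT-positive libraries against 3.00, 4.90, 7.06 and 8.11 CPM in tdT-negative ones. The 2 groups overlapped, with a log2 fold change of -0.12 (SE 0.13, edgeR adjusted p = 0.553). Fmod, a leucine-rich proteoglycan that regulates fibril thickness, had the largest fall of the class by a narrow margin, at 0.0767, 0.895, 0.162 and 0.899 CPM in tdT-positive libraries against 0.726, 1.78, 1.10 and 22.7 CPM in tdT-negative ones. Its groups overlapped, and its fall of 2.94 (SE 0.63, edgeR adjusted p = 0.0236) became a log2 fold change of -1.83 without replicate number 4. Hspg2 (perlecan) had a log2 fold change of -2.72 without overlap, and Lum (lumican) one of -1.25 with overlap, on 175 counts, which did not pass in the blocked DESeq2 Wald test (adjusted p = 0.0763).

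The nidogens, which link laminin and collagen IV networks in basement membranes, differed from each other: Nid1 was lower and Nid2 did not pass. Nid1 was at 1.15, 2.55, 0.765 and 0.850 CPM in tdT-positive libraries against 4.65, 10.2, 8.73 and 28.9 CPM in tdT-negative ones, with no overlap and a fall of 3.10 (SE 0.51, edgeR adjusted p = 0.0125). Nid2 was at 8.23, 10.3, 11.9 and 5.49 CPM in tdT-positive libraries against 5.83, 6.53, 7.67 and 5.61 CPM in tdT-negative ones. It was higher in tdT-positive libraries at numbers 1 to 3 and close to equal at number 4, and its log2 fold change of 0.44 (SE 0.13) did not pass (edgeR adjusted p = 0.0611). Without replicate number 4 it was 0.61 with an edgeR adjusted p of 0.00310, and Nid2 also passed as higher without the filter (adjusted p = 0.0412), by voom (0.0444) and by the DESeq2 Wald test (0.0485). Exons of Nid2 overlap those of Rtraf on the other strand by 437 bases, and Rtraf had 30103 counts against 3337 for Nid2. Rtraf had a log2 fold change of -0.18 (edgeR adjusted p = 0.232); the sources used here do not say whether the counting kept the 2 strands apart.

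Matrix glycoproteins held the most abundant genes of the whole set per length, Spp1 and Tgfbi. Of the 11, 7 were lower, Spp1 was higher, and Tgfbi, Ecm1 and Matn2 did not pass. Spp1 (osteopontin), a secreted phosphoprotein that binds integrins and CD44, was at 1026, 1165, 705 and 1963 CPM in tdT-positive libraries against 873, 864, 591 and 1366 CPM in tdT-negative ones. The ranges overlapped, but each tdT-positive library was above the tdT-negative library of its number, a log2 fold change of 0.36 (SE 0.08, edgeR adjusted p = 0.0262). Leaving out number 1, 2 or 3 took the adjusted p of Spp1 to 0.0647, 0.123 and 0.0599, with log2 fold changes from 0.33 to 0.41. With library totals in place of TMM, Spp1 had a log2 fold change of 0.28 and did not pass (edgeR adjusted p = 0.059).

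Tgfbi, a TGF-beta-induced adhesion protein, was at 1550, 1820, 1652 and 1047 CPM in tdT-positive libraries against 2034, 2206, 1776 and 1305 CPM in tdT-negative ones. Each tdT-positive library was below its partner, and the log2 fold change of -0.27 (SE 0.08) did not pass (edgeR adjusted p = 0.0563). It did pass as lower with library totals (adjusted p = 0.0215), upper-quartile factors (0.0327), the stricter filter (0.0431), voom (0.0421) and the DESeq2 Wald test (0.00101). Ecm1, which binds several matrix proteins and proteases, was at 64.5, 63.7, 70.2 and 73.1 CPM in tdT-positive libraries against 54.2, 58.1, 61.7 and 96.3 CPM in tdT-negative ones, a log2 fold change of 0.04 (SE 0.11, edgeR adjusted p = 0.812). Its tdT-negative library 4 was above all tdT-positive libraries and the other 3 were below them. Per length, Spp1 was at 733 and 557 RPKM and Tgfbi at 566 and 684 RPKM in tdT-positive and tdT-negative libraries.

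Sparc, a collagen-binding matricellular protein, had a fall close to that of Fstl1, at 9.86, 17.6, 7.00 and 12.4 CPM in tdT-positive libraries against 34.8, 76.4, 90.9 and 329 CPM in tdT-negative ones. The groups did not overlap, and Sparc fell by 3.08 (SE 0.49, edgeR adjusted p = 0.0117). The other 6 lower genes also showed no overlap: their log2 fold changes were -2.99 for Fstl1, -2.88 for Postn (periostin), -2.71 for Ccdc80, -2.61 for Thbs2 (thrombospondin), -2.42 for Tnc (tenascin C) and -2.31 for Fn1 (fibronectin). Fn1 was at 44.1 ± 18.1 CPM in tdT-positive libraries against 286 ± 300 CPM in tdT-negative ones (SD, n = 4 each). Matn2 (matrilin 2) had 120 counts in all and a log2 fold change of -1.02 (SE 0.35, edgeR adjusted p = 0.0912).

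The 3 TIMPs, which inhibit matrix metalloproteinases, differed from each other. Timp1 was at 187, 143, 398 and 103 CPM in tdT-positive libraries against 107, 117, 362 and 214 CPM in tdT-negative ones. It was higher in tdT-positive libraries at numbers 1 to 3 and lower at number 4, with a log2 fold change of 0.05 (SE 0.26, edgeR adjusted p = 0.916) that was 0.42 without number 4 (edgeR adjusted p = 0.0348). Timp3, which stays bound to the matrix, was at 2.90, 6.78, 3.76 and 5.87 CPM in tdT-positive libraries against 8.26, 17.4, 33.1 and 152 CPM in tdT-negative ones. It showed no overlap and fell by 2.71 (SE 0.56, edgeR adjusted p = 0.0217). Timp3 shares 1733 exon bases with Syn3 on the other strand, and Syn3 had 1 count in all libraries.

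Timp2, which also takes part in the activation of pro-Mmp2, was at 14.4, 14.6, 15.8 and 13.8 CPM in tdT-positive libraries against 15.2, 18.1, 20.0 and 45.7 CPM in tdT-negative ones. All 4 pairs were lower in tdT-positive cells, but the groups overlapped and the log2 fold change of -0.61 (SE 0.25) did not pass (edgeR adjusted p = 0.144). The 4 tdT-positive values lay close together, and tdT-negative library 4 lay far above the other 7 libraries.

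**Figure D2:**
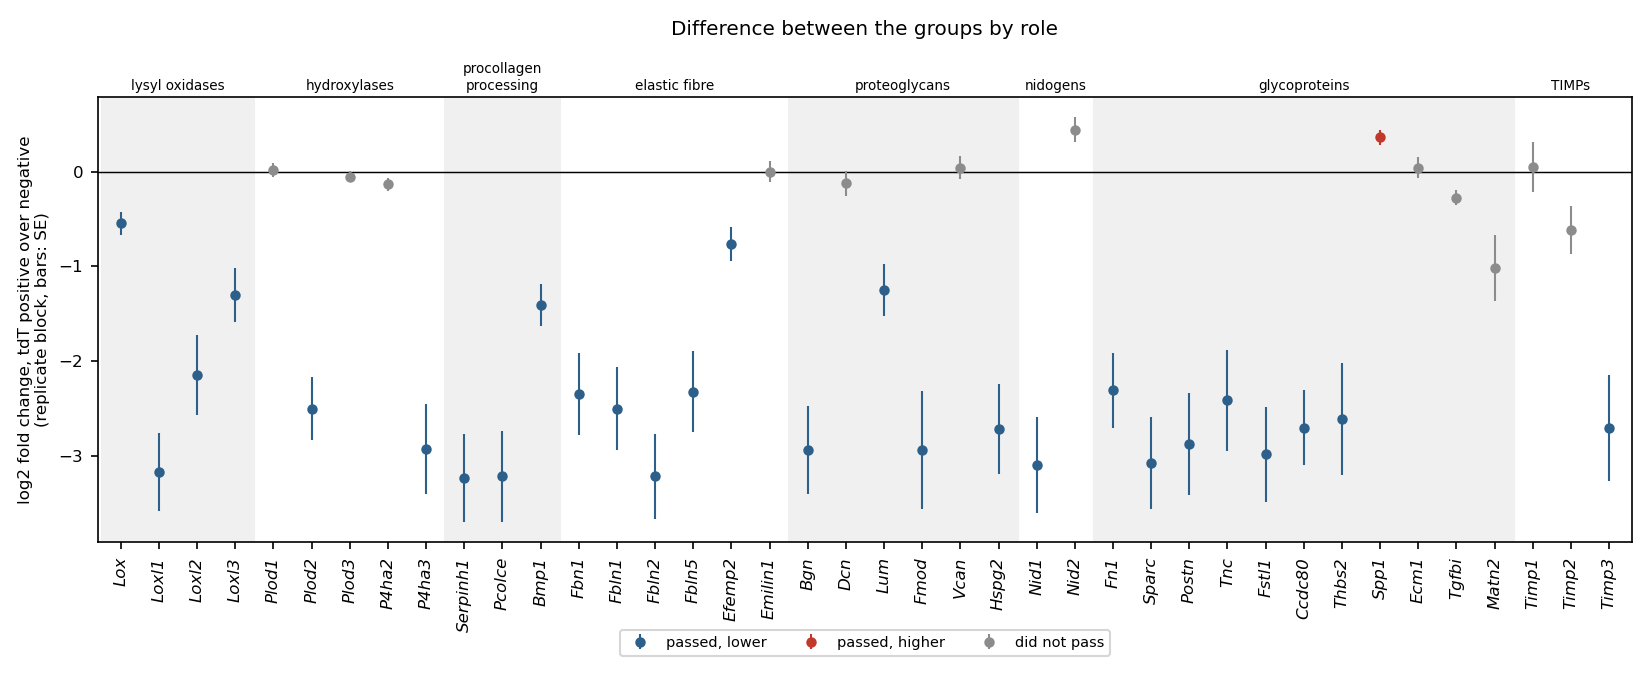
Log2 fold change of tdT-positive over tdT-negative libraries for the 40 tested genes from the blocked edgeR fit, by role, with bars of 1 SE; blue genes passed as lower, red as higher and grey did not pass. Falls of over 2 stand next to values within 0.3 of 0 among the hydroxylases, elastic fibre genes, proteoglycans, glycoproteins and TIMPs, and Spp1 at 0.36 is the only red point.

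Of the 13 tested genes that did not pass as lower with the stromal genes, 9 had a log2 fold change within 0.3 of 0: Plod1, Plod3, P4ha2, Emilin1, Dcn, Vcan, Ecm1, Tgfbi and Timp1. The limit of 0.3 serves for description, and no share of all genes within it was computed. Tgfbi, at -0.27, was lower at all 4 numbers and passed as lower in some of the other fits. The stromal reference list had median differences of -1.76, -1.82, -3.32 and -4.13 at numbers 1 to 4, and the 40 matrix genes had medians of -1.16, -1.42, -1.77 and -3.57. Serpinh1 differed by -2.06, -2.19, -4.11 and -4.63 at these numbers and Sparc by -1.82, -2.12, -3.69 and -4.72, while Spp1 differed by 0.23, 0.43, 0.26 and 0.52. In 24 of the 27 lower genes number 4 had the steepest fall, and in 9 of the 13 others number 4 also had the lowest difference. No such share was computed over all genes, so this may not be particular to the matrix genes.

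The number of calls depended on the pair of libraries left out. Without number 4, the pair holding the tdT-negative library that stood apart, none of the 27 lower genes lost its call, beside 10.4% of all genes lower, and Nid2, Spp1 and Timp1 were higher. Without number 1, 25 genes were lower (4.72% of all genes). Without number 2, 12 were lower (2.01%), and without number 3, only Plod2 passed (edgeR adjusted p = 0.0492, 0.993% of all genes). All 27 kept a negative log2 fold change in each of these fits, but without number 4 the fold of 14 of them was smaller by over 1.5 times: Thbs2 was at -1.84, Nid1 at -2.40, Timp3 at -1.98, Fbln1 at -1.78, Tnc at -1.74, Loxl2 at -1.53, Fbln2 at -2.63, Fbln5 at -1.72, Bgn at -2.34, Fmod at -1.83, Hspg2 at -2.07, Sparc at -2.49, Postn at -2.23 and Fstl1 at -2.34. Without number 2, Fmod was at -4.03. With all libraries, 30 of the 40 genes were lower at all 4 numbers, against 19.6% of all genes tested.

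**Figure D3:**
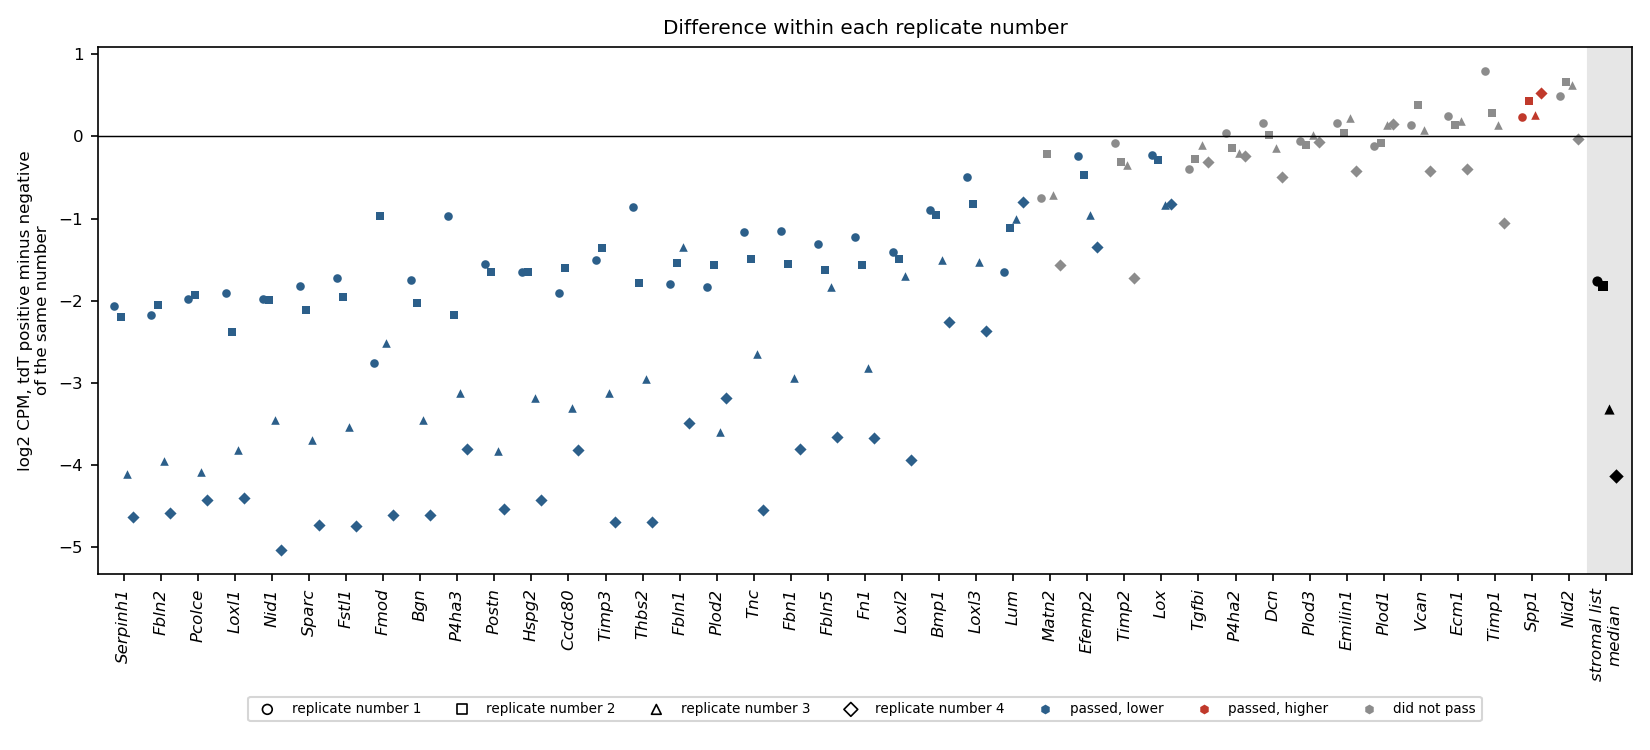
Difference in log2 CPM between the tdT-positive and the tdT-negative library of the same replicate number for the 40 tested genes, ordered by their blocked log2 fold change; the shape gives the number, the color the call, and the black symbols on the right the median of the stromal reference list. Serpinh1 is at -4.11 at number 3 and -4.63 at number 4, where the stromal medians are -3.32 and -4.13, while Plod1, Plod3 and P4ha2 stay near 0 and Spp1 lies above 0 at all 4 numbers.

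Ratios between close relatives within a library do not depend on library scaling. Pairs were chosen after their values had been seen, so the ratios are a description. Each gene was set against its most abundant relative per length among the 44 genes. P4ha1, which is outside the 44, averaged 78.0 RPKM over all libraries against 21.3 RPKM for P4ha2. Of 15 ratios, 7 did not overlap between the groups, and no such share was computed over other gene pairs. Each of the 7 sets a lower gene beside one that was not lower or fell less. This count therefore adds no support to the calls above. Reads of Nid1 per 100 reads of Nid2 were 14.0, 24.7, 6.45 and 15.5 in tdT-positive and 79.9, 157, 114 and 516 in tdT-negative libraries. Reads of Dcn per 100 reads of Bgn were 49.3, 43.5, 162 and 96.7 in tdT-positive and 13.1, 10.5, 16.2 and 5.53 in tdT-negative libraries. Dcn thus had more reads than Bgn in tdT-positive library 3, nearly as many in tdT-positive library 4 and far fewer in all tdT-negative libraries.

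Timp3 made up 1.55, 4.75, 0.944 and 5.70 reads per 100 of Timp1 in tdT-positive and 7.69, 14.9, 9.13 and 71.1 in tdT-negative libraries. Loxl1 made up 0.533, 0.432, 0.655 and 0.219 reads per 100 of Lox in tdT-positive and 1.77, 1.89, 5.51 and 2.73 in tdT-negative libraries. The same direction without overlap held for P4ha3 over P4ha2 and for Fbln2 and Fbln5 over Efemp2. P4ha3 and Fbln5 are among the genes that passed the low-count filter through the tdT-negative libraries. Plod3 over Plod1, by contrast, was 35.4 to 47.3 reads per 100 in tdT-positive and 33.9 to 54.8 in tdT-negative libraries.

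**Figure D4:**
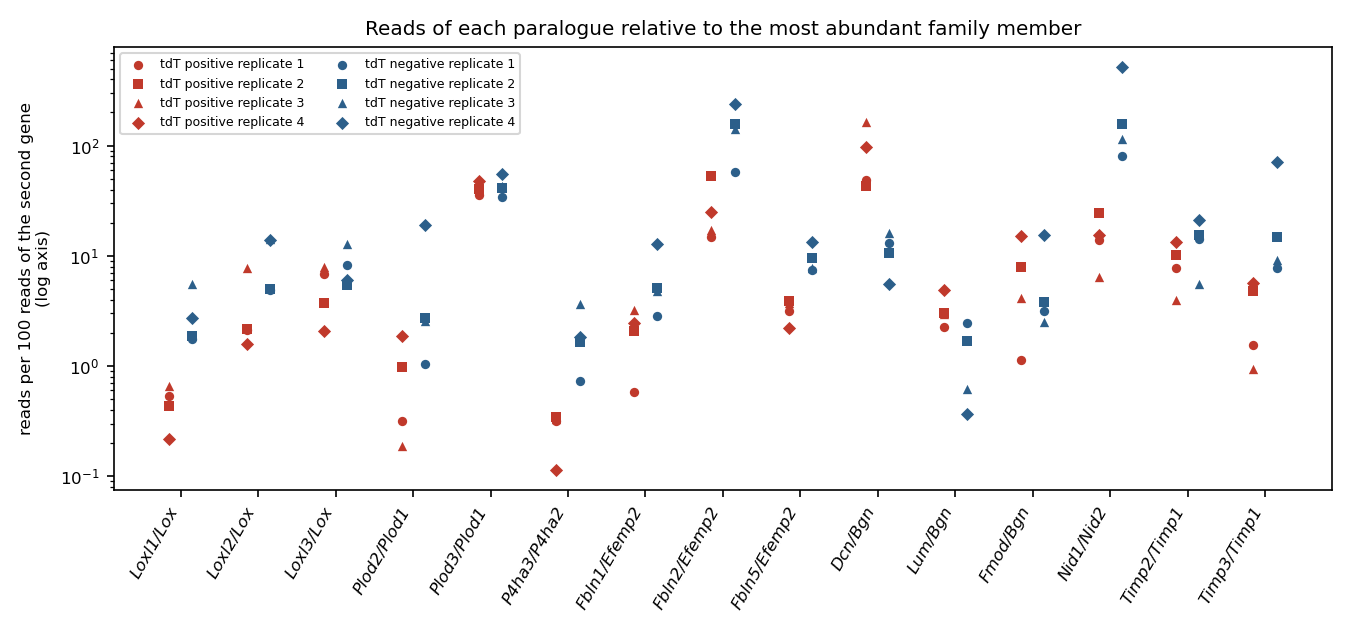
Reads of each gene per 100 reads of the most abundant member of its family in each library, on a log axis; each symbol is 1 library, red for tdT positive and blue for tdT negative. Nid1 per Nid2 is 6.45 to 24.7 in tdT-positive and 79.9 to 516 in tdT-negative libraries, Dcn per Bgn is reversed in order, and Plod3 per Plod1 overlaps.

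Genes that were not lower were also the abundant ones in tdT-positive libraries. Of the 13 tested genes that were not lower, 9 were above 10 RPKM in tdT-positive libraries, and of the 27 lower genes 1, Lox, was. In tdT-negative libraries 9 of the 13 and 9 of the 27 were above this level. Median levels in tdT-positive libraries were 22.9 RPKM for the genes not lower and 0.959 RPKM for the lower genes, and in tdT-negative libraries 23.8 and 6.14 RPKM. The level of 10 RPKM was chosen after the values had been seen, and level and fold change come from the same libraries. Dcn, Nid2, Timp2 and Matn2 were exceptions, at 2.43, 1.84, 4.04 and 0.0468 RPKM in tdT-positive libraries without passing as lower.

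**Figure D5:**
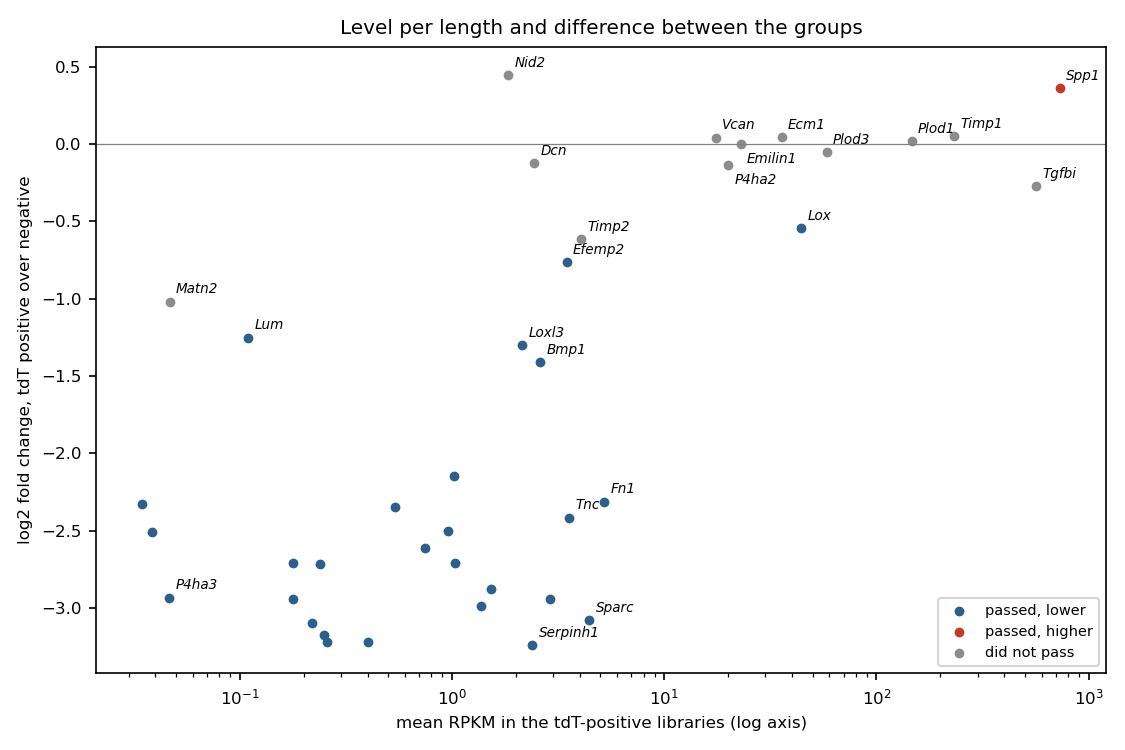
Mean level per length (RPKM, log axis) in the tdT-positive libraries against the blocked log2 fold change for the 40 tested genes; blue genes passed as lower, red as higher and grey did not pass. Genes above 10 RPKM lie between -0.55 (Lox) and 0.36 (Spp1), and the genes with falls over 2 lie below 10 RPKM.

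Other genes of the same pathways held both kinds of behavior. Of 30 other collagen-processing genes, 20 were tested, 9 were lower and 1 was higher, with a median of -0.76. Over all genes tested, 7.81% were lower and 8.03% higher. Of the 20 genes, 16 were above the low-count filter in all 4 tdT-positive libraries, and Adamts14 was above it in 3. Adamts14, a procollagen N-propeptidase, had a log2 fold change of -2.75 and Loxl4, another lysyl oxidase, one of -2.95, both without overlap, while Mia3 (TANGO1), which loads procollagen into transport carriers, was at 92.3 ± 8.47 and 79.5 ± 9.14 CPM (SD, n = 4 each) and rose by 0.22 (SE 0.05, edgeR adjusted p = 0.0382). Of 14 other genes listed under elastic fibres, 8 were tested and 2 were lower, with a median of 0.06. Ltbp1, a latent TGF-beta binding protein, had a log2 fold change of -3.27 and Ltbp2 one of -1.18. Among the 8 were Mfap1a, Mfap1b and Mfap3, at 0.06, 0.07 and 0.09. Their part in elastic fibres was not checked, so this median may not describe elastic fibre genes.

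Among 60 other matrix glycoproteins and proteoglycans, 27 were tested, 15 were lower and 1 was higher, with a median of -1.19. Over all genes tested, 7.81% were lower. Of the 27 genes, 19 were above the low-count filter in all 4 tdT-positive libraries, and Has2 was above it in 3. Has2, a hyaluronan synthase, had a log2 fold change of -3.21 and Smoc1, a Sparc-related calcium-binding protein, one of -2.81. Srgn (serglycin), the main proteoglycan of leukocyte granules, was the gene that rose, at 924 ± 242 CPM in tdT-positive libraries against 668 ± 219 CPM in tdT-negative ones (SD, n = 4 each), a log2 fold change of 0.49 (SE 0.12, edgeR adjusted p = 0.0333). These lists, like the 44 genes, were assembled with earlier results of these data known.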

How the data were processed

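Polyadenylated RNA of 8 libraries was sequenced from a stranded mRNA kit with 220 ng of total RNA per library, per the labels' protocols. The authors deposited whole-number counts per gene with Entrez identifiers, symbols and gene lengths. STAR and the mm10 build are named in the submitters' processing notes; the sources used here do not give the STAR version, counting tool, annotation or strand setting, and genes that share exons are uncertain. The deposited lengths, in bases, were used to turn CPM into RPKM.

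Groups and replicate numbers came from the titles. No 2 libraries of a group were repeats of each other: their chi-square per degree of freedom lay between 54.0 and 759. Low genes were removed by edgeR 4.0.16 (filterByExpr, count 10, total 15), TMM factors were 0.865 to 1.15, and quasi-likelihood tests were run both with group alone and with the replicate number added as a block. The labels call the libraries biological replicates but do not tie a number to a mouse or culture, and the p-values therefore cover only the variation among these libraries, which may be technical. Deviations from the group means correlated at 0.63, 0.28, 0.62 and 0.56 between libraries of numbers 1 to 4, and each library matched its own number best, so the blocked values are given. CPM in the text are TMM-scaled, and log2 CPM used a prior count of 2.

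The members and all gene lists were chosen with earlier results of these data known. Values in every library are given for the 2 most abundant members of each role class by RPKM, the member with the largest fall, and tested members not lower whose mean log2 CPM was 2 or more; non-members are named as the 2 with the smallest p of a list. Plod2, Fn1, Mia3, Srgn, Fap, Mfap1a, Mfap1b and Mfap3 are named outside this rule, after their values were seen. So are the neutrophil markers other than Mmp8 and Prtn3, and the overlapping genes. Alternatives were DESeq2 1.42.0, limma voom 3.58.1, other scalings, filters and thresholds, and leaving out libraries. The scripts were tested on simulated counts. Promoter windows are RefSeq's for GRCm38.p6, and exon overlaps are from GENCODE for the same build. The table held 8 genes without a symbol.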

Additional observations from a re-analysis of the deposited data

Results flagged for a closer look

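In each group of 4 libraries, a library was singled out where its gap to the nearest other library, divided by the range of the group, was above Dixon's critical value for 4 values. Of 80 groups examined (40 genes in each group), 15 met this. For independent, normally distributed values about 1 in 20 groups would be singled out. The 80 groups share the same 8 libraries and CPM were not put on a log scale, so the rate for these data is not known. In 13 of the 15 the library was tdT-negative library 4, which was high each time. It held 88.4 CPM of Loxl2, 58.9 CPM of Plod2, 71.0 CPM of Fbn1, 2.38 CPM of Fbln1, 2.48 CPM of Fbln5 and 22.7 CPM of Fmod. It also held 732 CPM of Fn1, 136 CPM of Postn, 511 CPM of Tnc, 141 CPM of Fstl1, 162 CPM of Thbs2, 0.794 CPM of Matn2 and 45.7 CPM of Timp2. The nearest other tdT-negative library was at 19.8 CPM for Loxl2, 176 CPM for Fn1, 105 CPM for Tnc, 1.78 CPM for Fmod and 20.0 CPM for Timp2. The 2 cases in tdT-positive libraries were a low Loxl2 in library 1, at 3.24 CPM beside 5.72 CPM in the nearest, and a high Ccdc80 in library 2, at 1.15 CPM beside 0.539 CPM.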

How the results depend on the processing

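Adding the replicate block moved the all-gene counts from 1 higher and 2 lower to 1013 and 985, and the members' counts from 0 higher and 0 lower to 1 and 27. Without the block, all genes higher and lower numbered 327 and 594 by the DESeq2 Wald test, 32 and 184 without the filter, and 154 and 370 at an adjusted p under 0.1; 1 gene was lower with library totals, with the stricter filter of 1 CPM in 4 libraries and at 0.01. Members lower without the block numbered 23 by the Wald test, 12 without the filter, 19 at 0.1, and 0 to 21 over the fits that left out a library: 21 without tdT-negative library 1 and 13 without tdT-negative library 4. In those fits all genes higher ranged from 1 to 62 and lower from 1 to 394. With the block, all genes higher and lower numbered 99 and 135 at 0.01, 1631 and 1551 at 0.1, and ranged from 94 to 1231 and from 126 to 1304 when a number was left out. Members lower with the block numbered 4 at 0.01, and 1 to 27 without a number, where members higher ranged from 0 to 3. Members higher numbered 2 without the filter, by the Wald test, by voom and at 0.1, and 0 with library totals and at 0.01. The median of all genes was -0.07 with library totals and 0.0051 with TMM, and library totals gave 422 higher and 996 lower, so 29.8% of calls were higher against 50.7% with TMM. Members higher without overlap numbered 0 to 1 when a library was left out.

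Fold changes of single genes changed sign only for 6 members that did not pass. With library totals Plod1 was -0.060, Vcan -0.036, Ecm1 -0.035 and Timp1 -0.028; Plod1 was also -0.0087 without the block and -0.016 with upper-quartile factors, and Emilin1 was 0.0095 without the filter and 0.00064 by voom. Over the fits that left out a number, Plod1 ranged from -0.028 to 0.070, Emilin1 from -0.082 to 0.15, Dcn from -0.20 to 0.014, Vcan from -0.080 to 0.21, Ecm1 from -0.022 to 0.20 and Timp1 from -0.20 to 0.42. When a library was left out, the difference in the log2 ratio of Plod3 over Plod1 ranged from -0.18 to 0.048 and that of Fmod over Bgn from -0.49 to 0.76. The causes of these changes were not tested. At this depth Eln, with 2 counts in all, was not measurable.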

Other observations

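Outside the 44 genes, several matrix genes with high counts did not pass in the blocked edgeR fit; they are named after their values were seen. Thbs1, the thrombospondin of platelets and activated macrophages, was at 3603 ± 1754 CPM in tdT-positive libraries against 2813 ± 695 CPM in tdT-negative ones (SD, n = 4 each; log2 fold change 0.28, adjusted p = 0.166), beside -2.61 for Thbs2. P4hb, the beta subunit shared by the prolyl 4-hydroxylases, was at 2058 ± 276 and 1903 ± 225 CPM, and P4ha1, an alpha subunit, at 320.9 ± 26.4 and 320.6 ± 34.4 CPM. Emilin2, a relative of Emilin1, was at 697 ± 122 and 682 ± 177 CPM, and the syndecan Sdc3 at 1554 ± 333 and 1460 ± 394 CPM. Sdc1, another syndecan, was at 192 ± 49.9 and 296 ± 55.9 CPM with no overlap between the groups, and its log2 fold change of -0.64 (SE 0.23) did not pass (adjusted p = 0.103).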
